A study of Homo sapiens with 6 samples.

Results

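The retinoid receptors and retinoid-binding proteins are 9 genes: the retinoic acid receptors RARA, RARB and RARG, the retinoid X receptors RXRA, RXRB and RXRG, the cellular retinoic acid-binding proteins CRABP1 and CRABP2, and STRA6. They were found by their gene symbol among the gene spots of the array, which gave 15 probes of 9 genes among 34127 probes in all. Transcript levels were measured in a pair of lines derived from the T47D breast cancer line, by the study's methods from its T47Dco subline grown as tumors in mice, with 3 arrays for each line. pLUM (pure luminal) cells are CLD3+ CD49f- and came from a tumor grown with estradiol (E); they were kept about 2 months in 1 nM E, sorted, grown about 2 more months and resorted 2 times. pLB (pure luminobasal) cells are CLD3- CD49f+ and came from a tumor grown with E and progesterone; they were kept about 2.5 months without estrogen (EWD), sorted, grown about 2 more months and resorted 2 times. For the arrays, pLUM cells had received 1 nM E for 72 h and pLB cells were under EWD, so that line and hormone coincide on all 6 arrays and cannot be told apart. Cells of both lines were fixed, stained for CK5 and sorted before RNA was extracted, and the CK5 fraction put on each array is not given in the sources used here. Each line is 1 derived line and its replicates are separate sorts, so that p-values measure only the spread between sorts.

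Retinoic acid is made from vitamin A (retinol) in steps of oxidation and acts inside the nucleus. RARs bind it and sit on DNA as pairs with RXRs, where they hold corepressors without ligand and recruit coactivators with it. RXRs also pair with other nuclear receptors. CRABP1 and CRABP2 carry retinoic acid in the cytosol, with CRABP2 known for delivery to RARs in the nucleus and CRABP1 for keeping or passing on the ligand in the cytoplasm. STRA6 is a membrane receptor through which cells take up retinol from its plasma carrier. In breast cancer cells, retinoid signaling is known for slowing growth, and RARA is known as an estrogen-induced gene.

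The results turn on 5 of the 15 probes, each a 60-base oligonucleotide of which the first 30 bases are given 5′ to 3′ as the deposited files have them. Positions are those of the files, on hg19. The files name no exon or untranslated region for them. The first 3 are the probes that differed between lines, and the CRABP2 pair is shown because its probes lie apart in the gene and are annotated to different transcripts. No base is capitalised, since the whole oligonucleotide binds the target.
RARG (NM_000966, chr12:53604565-53604624): ctatttatttattagcttttgtttacaccg
CRABP1 first probe (NM_004378, chr15:78640361-78640420): tcccctgaggaatatgtcatagttctgagc
CRABP1 second probe (NM_004378, chr15:78640508-78640567): gctccatagtttggcatttgcacggtttcg
CRABP2 first probe (NM_001878, chr1:156669579-156669638): ccctacaccaacaaagaggaatggctgcaa
CRABP2 second probe (NM_001199723, chr1:156675546-156675605): tcaagtgctggctttgcgtccgcttcccca

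Levels below are log2 of the spot intensity over the array's 75th percentile, so that 0 is the brightness of the probe at the 75th percentile. That percentile was 449 to 868.9 intensity units across the 6 arrays, 21285 to 22775 probes per array were well above background, and no gene spot was saturated. The lines carried the markers of their names. In pLB, KRT5, the basal keratin, exceeded its pLUM level at least 1754-fold, TP63, the basal transcription factor, was at least 32.2-fold higher, and PGR at least 67.5-fold lower, and GATA3 differed by -5.36 log2. ESR1, the estrogen receptor gene, was called lower by all 3 of its probes, at least 38.7-fold and 20.4-fold by the pair that no pLB array measured above background, and by -1.79 log2 by the brightest over all arrays. Of 8 luminal markers 7 were lower in pLB, and all 9 basal markers were higher. Of the KRT8 probes, 2 were called lower and 1 higher (1.89 log2). All but KRT14 are markers the study reported for these lines from its own profiling, with its CD44 and Notch-1 left out here. Cells were also sorted on CLD3, CD49f (ITGA6) and CK5 (KRT5). These counts therefore check the labels and are no independent test. The summed level of the luminal list was 255.5 to 280 in pLUM and 82.5 to 87.1 in pLB, in multiples of the 75th percentile. The summed level of the basal list was 1.23 to 1.4 in pLUM and 137 to 168 in pLB, on the same scale. Markers of blood, endothelial, stromal and fat cells summed to 0.229 to 0.382 in pLUM and 0.269 to 0.505 in pLB, with 5 of 10 well above background on no array. Of the 4 that were tested, CD68 (2.87-fold) and VWF (at least 1.8-fold) were called higher in pLB, PTPRC was not called by its brightest probe but lower by another (-1.2 log2), and their part in the results below was not tested. The 3 pLUM arrays and pLB replicate 1 shared a slide, and pLB replicates 2 and 3 were on another.

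CRABP1 and RARG were higher in pLB cells, by 5.998-fold and 10-fold on the pair of CRABP1 probes and 4.61-fold on the RARG probe. RARA, RXRA, RXRB and CRABP2 were measured on all 6 arrays and none passed the test. RARB, RXRG and STRA6 were too dim to test. In all, 9 probes of 6 genes were bright enough, each well above background on all 6 arrays. A probe was called when it differed at least 2-fold with an adjusted p under 0.05 by limma with Benjamini-Hochberg adjustment over the 23105 probes tested. Of the 9 probes, 3 were called higher, none lower and 6 were not called, and with no fold threshold the same 3 were higher, against 31.1% of all probes. At an unadjusted p under 0.05, 4 were higher and 0 lower by limma, against 33% and 33.4% of all probes, and 3 and 0 by the methods' t-test. Differences between these lines are widespread: 45.6% of all tested probes were called, with 21.9% higher and 23.7% lower in pLB, so that the 33.3% of these probes was below the share over the whole array. The median log2 difference of the 9 probes was 0.41, against -0.008 for all probes tested.

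**Figure D1:**
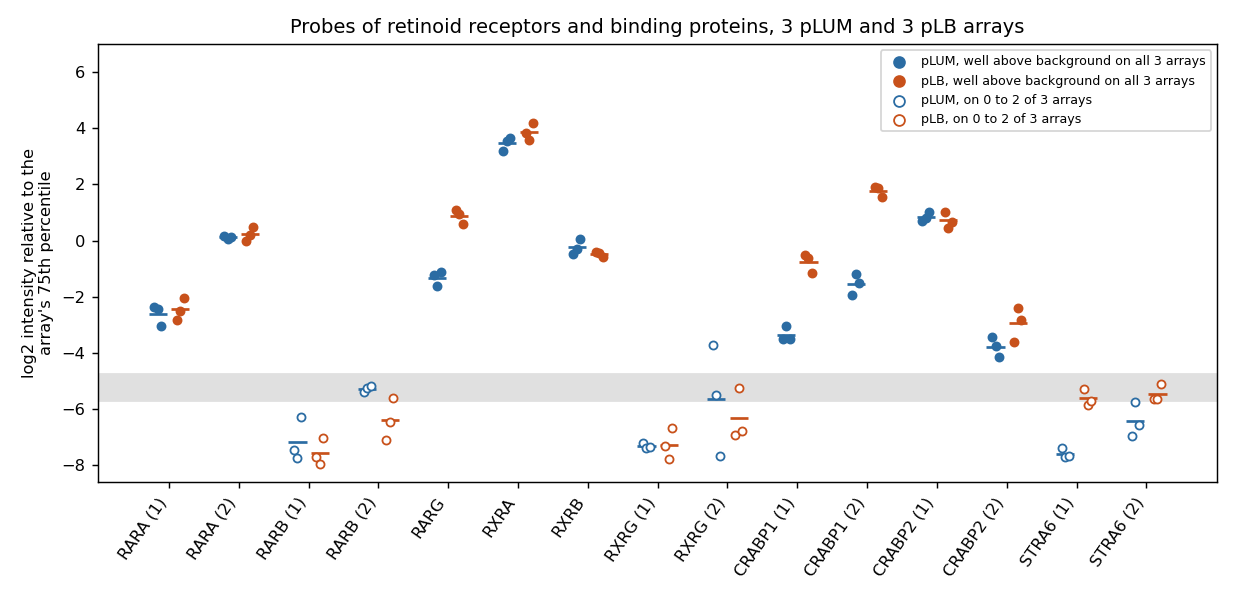
Level of each of the 15 probes (y axis, log2 intensity relative to the array's 75th percentile) on the 3 pLUM arrays (blue) and 3 pLB arrays (orange), with horizontal lines at the means of 3 arrays. Filled points are probes well above background on all 3 arrays of the line, open points are the others, and the grey band spans the lowest level well above background on each array (-5.71 to -4.75). The RARG probe and both CRABP1 probes stand apart between lines, whereas most points of RARB, RXRG and STRA6 lie in or below the band.

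Among the retinoic acid receptors, RARA was not called and RARB was too dim to test, whereas RARG, best known from skin and other epithelia, differed. Its log2 level was -1.22, -1.62 and -1.13 in the pLUM sorts, and 1.1, 0.96 and 0.58 in the pLB sorts, each given here and below in the order of replicates 1, 2 and 3. All pLB arrays were above all pLUM arrays, with a gap wider than the spread within either line. The means were -1.33 ± 0.26 in pLUM and 0.88 ± 0.27 in pLB (SD, n = 3 each), a log2 difference of 2.21 with SE 0.22, or 4.61-fold (95% interval 3.24 to 6.55; limma adjusted p 0.00011). Among all tested probes, 8.16% had a higher log2 difference, and 16.35% had a larger absolute one, the measure used for CRABP1 below. RARG had a single probe, so no other probe of the gene could be set beside it.

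RARA, the receptor known as an estrogen target in breast cancer cells, had its pair of probes within 0.2 log2 of no difference. The brighter probe (chr17:38512928-38512987) had log2 levels of 0.15, 0.066 and 0.14 in pLUM and -0.009, 0.2 and 0.47 in pLB, and the groups overlapped. Its log2 difference was 0.10 (95% interval -0.31 to 0.52, limma adjusted p 0.63). The dimmer probe (chr17:38513174-38513233) read -2.37, -2.44 and -3.06 in pLUM and -2.81, -2.49 and -2.03 in pLB. It also overlapped, with a log2 difference of 0.18 (95% interval -0.47 to 0.83, limma adjusted p 0.59). Both intervals leave out a 2-fold difference in either direction.

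RARB, a receptor whose own promoter is a textbook target of retinoic acid, was dim in both lines. One probe (chr3:25638622-25638681) was well above background on no array, and its level on 5 of 6 arrays was a substitute value that the scanner software gives to spots near background. The other (chr3:25636109-25636168) passed background on 2 of 3 pLUM arrays and no pLB array. It read -5.4, -5.24 and -5.18 in pLUM and -7.1, -6.46 and -5.62 in pLB, so that pLB lay below pLUM. Measured against the lowest level well above background this allows only at least 1.01-fold higher in pLUM, and the probe was not tested. With the filter on dim probes removed it was called lower in pLB (log2 difference -1.12, limma adjusted p 0.048), a value that rests on readings at background. A read at background does not show that the transcript was absent.

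The response element in the RARB promoter is shown as the sequence by which retinoid receptors are known to act on this gene family. Promoter windows from 250 bases before to 50 after each start were taken from RefSeq (GRCh38.p14), which held 20 windows for all 9 genes among 35116. Each was searched on both strands for a direct repeat of the receptors' recognition site, where each copy could be the consensus AGGTCA, a site spelled AGTTCA, one that reads GGGTCA or one written as GGTTCA. A repeat with 5 bases between the sites was found in 1 of the 20 windows, that of RARB, and in 0.0883% of all windows. The allowed spellings include those of this known element, so that its finding is no test. Some windows of the same gene also overlap. It spans 53 to 37 bases before the start, in capitals in this stretch of the plus strand at chr3:25428178-25428258:
RARB: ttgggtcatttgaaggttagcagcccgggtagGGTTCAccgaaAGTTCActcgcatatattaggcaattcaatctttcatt
With 1 or 2 bases between the sites, 0 of the 20 windows held a repeat, against 0.131% and 0.0399% of all windows. The single site AGGTCA, which can overlap such a repeat, was found in 5 of the 20 windows (of RARA, RARB, RXRG and STRA6) and in 13.8% of all windows. The windows of RARG and CRABP1, which differed between lines, were 1 each and held none of these repeats or sites. Neither did the windows of CRABP2, RXRA and RXRB, which were not called.

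The retinoid X receptors, the obligate partners of RARs, did not pass the test. RXRA (chr9:137331772-137331831) read 3.18, 3.55 and 3.65 in pLUM and 3.82, 3.59 and 4.19 in pLB. Only the lowest pLB array fell within the pLUM range, and the log2 difference was 0.41 (95% interval -0.11 to 0.93, limma adjusted p 0.15). RXRB (chr6:33162186-33162245) read -0.46, -0.31 and 0.052 in pLUM and -0.4, -0.45 and -0.57 in pLB, and the groups overlapped. Its log2 difference was -0.23 (95% interval -0.67 to 0.21, limma adjusted p 0.31). Both intervals exclude a 2-fold difference. RXRG, the form known from muscle and nervous tissue, was well above background on no array by one probe (chr1:165386359-165386418) and on 1 array of each line by the other (NR_033824, chr1:165406166-165406225). That second probe scattered from -7.66 to -3.73 in pLUM and from -6.94 to -5.25 in pLB, so that its arrays overlapped and no level can be given.

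**Figure D2:**
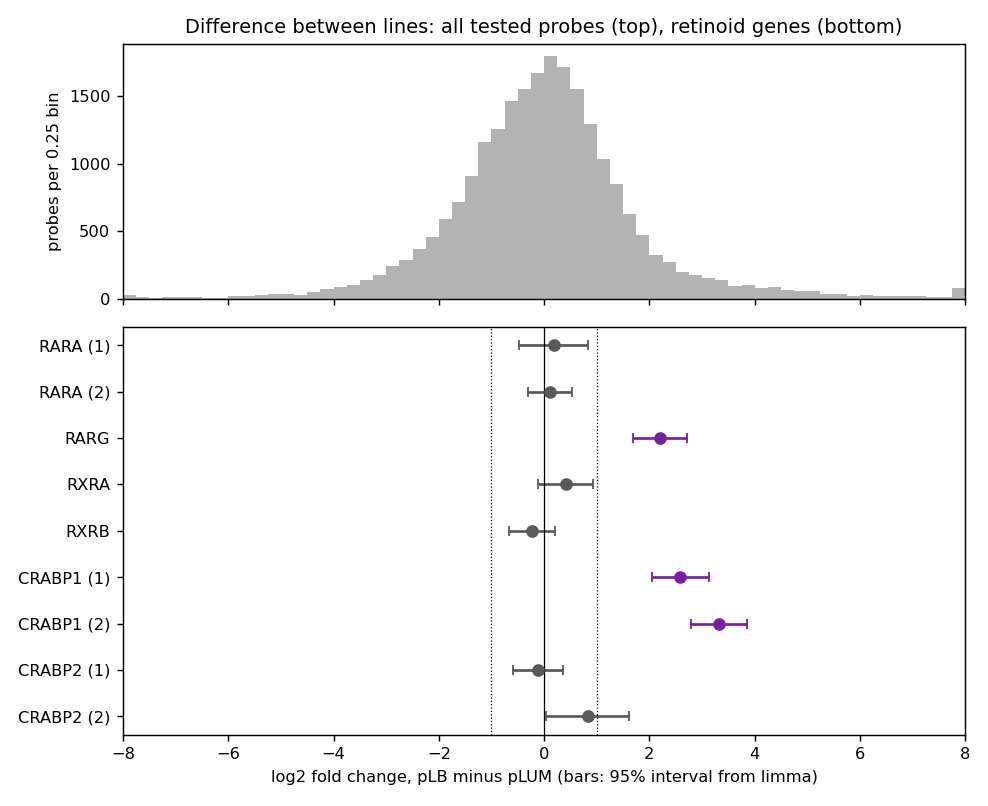
Top, number of tested probes (y axis) by log2 difference between lines (x axis, pLB minus pLUM, bins of 0.25, the outermost bins holding all larger differences). Bottom, log2 difference of each of the 9 tested probes of retinoid receptors and binding proteins with its 95% interval from limma, with called probes in purple and dotted lines at a 2-fold difference. The RARG and CRABP1 intervals lie wholly beyond the dotted line (lowest limit 1.7), and RARA, RXRA, RXRB and the first CRABP2 probe lie wholly within the pair of lines.

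CRABP1, the cytosolic retinoic acid carrier, had the widest difference among the tested genes of the family, and its probes pointed the same way. The second probe read -1.93, -1.19 and -1.51 in pLUM and 1.89, 1.88 and 1.57 in pLB. The lowest pLB array stood well above the highest pLUM array. Means were -1.54 ± 0.37 and 1.78 ± 0.18 (SD, n = 3 each), a log2 difference of 3.32 with SE 0.23, or 10-fold (95% interval 6.89 to 14.5, limma adjusted p 2e-05). The first probe, nearby in the same transcript, read -3.51, -3.05 and -3.49 in pLUM and -0.52, -0.63 and -1.14 in pLB. Its means were -3.35 ± 0.26 and -0.76 ± 0.33 (SD, n = 3 each), a log2 difference of 2.58 with SE 0.23, or 5.998-fold (95% interval 4.11 to 8.75, limma adjusted p 7e-05). The lines did not overlap on either probe. The smaller difference belonged to the dimmer probe; with background corrected by normexp it was 1.46, and that of the brighter probe 2.73, with both still called. Of all tested probes 7.16% had a larger absolute log2 difference than the second probe, and 12.2% than the first. In the bulk RNA measured here, more transcript per cell and more cells with the transcript cannot be told apart.

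CRABP2, the carrier that delivers retinoic acid to RARs and is known as an estrogen-induced gene in breast cancer cells, had a pair of probes that read differently. The first read 0.69, 0.8 and 1.02 in pLUM and 1.03, 0.46 and 0.68 in pLB, and the groups overlapped. Its log2 difference was -0.11 (95% interval -0.59 to 0.36, limma adjusted p 0.65). The second read -3.43, -3.75 and -4.15 in pLUM and -3.61, -2.42 and -2.82 in pLB, where pLB replicate 1 lay within the pLUM range and the other pLB arrays above it. Its log2 difference was 0.83 (95% interval 0.038 to 1.62, limma adjusted p 0.065), which did not pass. Without pLB replicate 1 it was 1.16 and passed (limma adjusted p 0.0097). pLB replicate 1 is also the pLB array on the slide of the pLUM arrays. With the slide as a block, only that array is set against pLUM, and the difference was 0.17. A part of the slide and a part of the array cannot be told apart here, and neither was tested.

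STRA6, the retinol uptake receptor, was well above background on a single array, pLB replicate 1, by 1 of its probes. That probe (chr15:74471812-74471871) read -7.38, -7.71 and -7.67 in pLUM, which are substitute values, and -5.28, -5.85 and -5.72 in pLB. The other (chr15:74486725-74486784) read -6.96, -5.74 and -6.57 in pLUM and -5.62, -5.64 and -5.11 in pLB. All pLB readings were above all pLUM readings on both probes. Most lay under the level at which these arrays measure, so that no fold is given and neither was tested. With no filter on dim probes, the former was called higher (log2 difference 1.97, limma adjusted p 0.00052) and the latter was not (0.97, limma adjusted p 0.064).

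Of the 9 tested probes 3 did not overlap between lines, against 68.1% of all probes whose ranges were compared. The called probes kept their call under each of 18 settings, including other background corrections, scalings, filters, blocks and the removal of each array in turn, but not a change of probe, since RARG has one. RARG ranged from 1.87 to 2.46 log2 (adjusted p 6.6e-05 to 0.0027), the second CRABP1 probe from 2.73 to 3.58 (1.3e-05 to 0.0013) and the first from 1.46 to 2.84 (4.3e-05 to 0.0033). The RARA probes (-0.19 to 0.43 and -0.12 to 0.36), RXRB (-0.34 to 0.022) and the first CRABP2 probe (-0.27 to 0.2) changed sign between settings, so that no direction is given for them. RXRA ranged from 0.21 to 0.66 and was called in none.

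**Figure D3:**
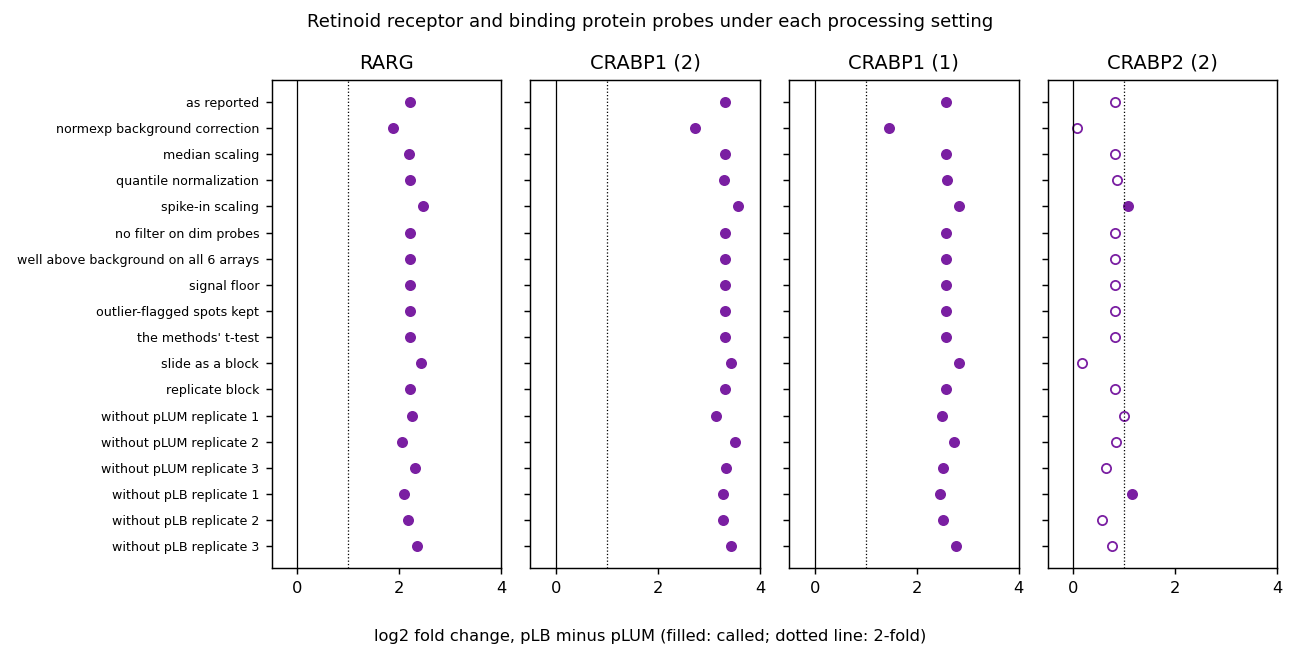
Log2 difference (x axis, pLB minus pLUM) of the RARG, CRABP1 and second CRABP2 probes under each of 18 processing settings (y axis), filled where called, with a dotted line at 2-fold. RARG and both CRABP1 probes are filled in every row; CRABP2 is filled with spike-in scaling and without pLB replicate 1, and is lowest with normexp (0.066) and with the slide as a block.

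Differences were also set against a related gene on the same array, which removes any scaling between arrays. The pairs were chosen after their values were seen, and the brightest probe of each gene was used. Relative to the pLUM mean, the log2 ratio of RARG to RARA was 2.55, 2.2 and 1.56 on pLB replicates 1, 2 and 3, and between -0.25 and 0.17 on the pLUM arrays. That of CRABP1 to CRABP2 was 3.24, 3.8 and 3.27 in pLB, and between -0.24 and 0.39 in pLUM. For RXRA to RXRB it was 0.52, 0.34 and 1.06 in pLB and between -0.1 and 0.16 in pLUM. The mean ratio differed between lines by 2.1 log2 for RARG to RARA, by 3.43 for CRABP1 to CRABP2 and by 0.64 for RXRA to RXRB. The lack of overlap was known when the pairs were chosen, so these ratios are a description and no test is given.

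**Figure D4:**
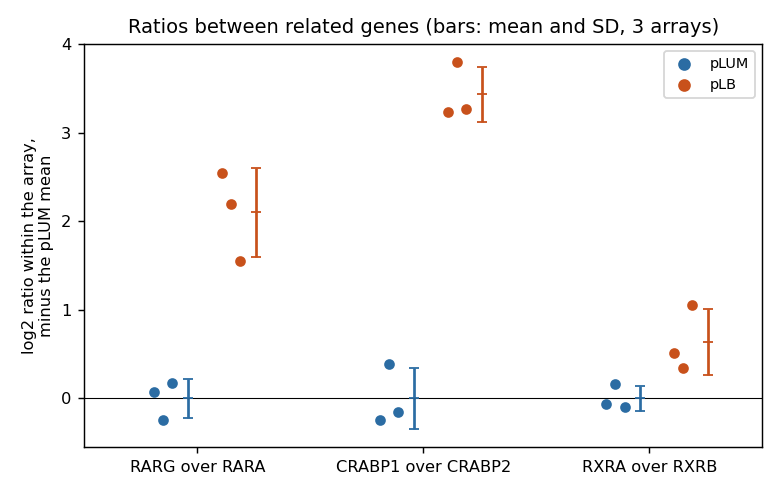
Log2 ratio of a pair of related genes on each array minus the pLUM mean of that ratio (y axis), for 3 pairs (x axis), with pLUM in blue and pLB in orange; bars are the mean and SD of 3 arrays. The ratio of CRABP1 to CRABP2 moved most (difference 3.43) and that of RXRA to RXRB least (0.64).

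Genes whose pattern lay nearest to CRABP1 were ranked over the 6 arrays by the Euclidean distance of log2 values centred on each gene's mean, among 16769 genes. The nearest was DLL1, a ligand of the Notch receptors, at a distance of 0.27 and a log2 difference of 3.31. MT1L and MT1B, of the metallothionein family of metal-binding proteins, followed at 0.35 and 0.37, with log2 differences of 3.23 and 3.17. Metallothionein genes are close copies of each other, so that these probes may read more than one of them. Likeness over 6 arrays of a pair of lines mainly ranks the size of the difference. The genes measured next to RARG and CRABP1 on the chromosome, chosen after values were seen, were not called: ITGB7 and MFSD5 beside RARG had log2 differences of 0.36 and 1.18 (limma adjusted p 0.24 and 0.063), and WDR61 and IREB2 beside CRABP1 -0.24 and -0.96 (limma adjusted p 0.5 and 0.0069, the latter under 2-fold).

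The rest of the retinoid pathway was described from 79 genes in 7 lists, each gene by its brightest tested probe. Of the 50 that could be tested, 14 were higher in pLB, 13 lower and 23 not called, or 54.0% called against 46.6% of all 16774 genes (23% higher, 23.5% lower). The median log2 difference was 0.11, against 0.029 over all genes. Of the 50, 10 were not well above background on some array, and 9 of these were called. Among the 40 well above background on all arrays, 9 were higher and 9 lower, or 45.0%, against 40.4% of such probes in general. The count of higher genes depends on the background correction: with normexp, 3 were called higher (NCOR1, RORA and VDR) and 11 lower. The other 11 genes called higher lost their call there, and the log2 difference was then 0.67 for DHRS9, 0.77 for TGM2, 0.64 for PPARG and 0.81 for ALDH1A3.

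Genes that carry, store and oxidise retinol and retinal were called in both directions. Of 28 genes for retinol and retinal handling, 15 were tested, 4 higher, 7 lower and 4 not called, with a median log2 difference of -0.67. RBP2 and RBP5, retinol carriers of the cytosol, were at least 2.38-fold and 5.29-fold lower. RBP7, of the same family, was measured in both lines, at -1.3 to -1.17 in pLUM and -4.66 to -4.17 in pLB, 8.71-fold lower (limma adjusted p 1.1e-05). Among the dehydrogenases of the list, calls went in both directions. DHRS9 was at least 5.52-fold higher, and RDH10 and SDR16C5 were higher by 1.24 and 1.5 log2. SDR16C5 had 2 of 3 pLUM arrays well above background. DHRS3, which reduces retinal back to retinol, was higher by 1.13 log2. These 4 genes lost their call with normexp, at 0.668 for DHRS9, 0.916 for RDH10, 0.124 for SDR16C5 and 0.859 for DHRS3. The dehydrogenases RDH13 and RDH16 were lower, by log2 differences of -2.29 and -4.56, RDH16 with only 2 of 3 pLB arrays well above background. Both kept their call with normexp. DGAT1, which can esterify retinol besides making triglyceride, and BCO2, which cleaves carotenoids, differed by -1.44 and -1.08, and BCO2 lost its call with normexp and with spike-in scaling (-0.83 each).

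Of 7 genes for synthesis and breakdown of retinoic acid itself, 2 could be tested and both were higher in pLB. ALDH1A3, a dehydrogenase that forms retinoic acid from retinal, read -3.96 to -3.52 in pLUM and -2.1 to -1.68 in pLB, with no overlap and a 3.86-fold difference (limma adjusted p 0.00014). ALDH1A1, of the same activity, was at least 1.998-fold higher, but its log2 difference was -0.067 with normexp, so that its direction depends on the background correction. Its other probe was well above background on 1 pLB array only and was not tested. The CYP26 enzymes, which break retinoic acid down, were all too dim to test.

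Of 15 genes known to be induced by retinoic acid, 10 were tested, 2 higher, 4 lower and 4 not called (median -0.37). TGM2, tissue transglutaminase, exceeded its pLUM level at least 7.62-fold in pLB by the probe annotated to NM_198951. Its other probe (NM_004613) was well above background on no array and was not tested. RAI14 was higher by 1.62 log2. PLAAT4, under its older name RARRES3 on the array, differed by -1.69, BHLHE40 by -1.67 and TNFAIP2 by -1.25, and RAI2 was at least 1.93-fold lower. The call of RAI2 was lost with normexp (-0.82) and with dim signals set to a floor (-0.95), and that of TNFAIP2 with spike-in scaling (-0.996). NRIP1, a ligand-dependent corepressor, was not called by its brighter probe (0.004), though its other probe was called lower (-1).

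Among 13 receptors that pair with RXR, 10 were tested, 4 higher, 2 lower and 4 not called (median 0.61). VDR, the vitamin D receptor, read 1.68 to 1.76 in pLUM and 2.75 to 3.01 in pLB, a 2.24-fold difference (limma adjusted p 5e-04). PPARG, the fat-cell nuclear receptor, was at least 6.01-fold higher, and both its probes were called. THRB and NR4A2 were higher by 1.21 and 1.33 log2, each with another probe that was not called (-0.27 and 0.9). Both lost their call with normexp (0.47 and 0.115). NR1H3 and NR1I3, receptors for oxysterols and for xenobiotics, differed by -1.31 and -1.97. Another NR1I3 probe was well above background on 1 pLB array only and was not tested. FABP5, which carries retinoic acid to PPARD, was the only tested gene of 4 fatty acid-binding proteins and was not called (-0.28). With the slide as a block, where only pLB replicate 1 is set against pLUM, its difference was -1.4.

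All 10 coregulators of the list were tested, and the corepressor NCOR1 was the 1 called, higher in pLB. NCOR1 was 3.36-fold higher by its brightest probe, while its other 2 probes gave -0.011 and 0.056 and were not called, so that its probes disagree. TBL1XR1 and TRIM24 were not called by their brightest probes, though another probe of each was called lower, by -2.2 log2 for TBL1XR1 and at least 2.34-fold for TRIM24. RORA and RORB, the retinoic acid-related orphan receptors named for their sequence rather than a shown ligand, were both tested. RORA read -4.76 to -4 in pLUM and -1.5 to -0.42 in pLB and was higher in pLB by 3.34 log2 (limma adjusted p 0.00012). RORB differed by -0.95, under 2-fold, though it passed without pLUM replicate 1 (-1.04) or pLB replicate 3 (-1.15). With the slide as a block, where only pLB replicate 1 is set against pLUM, the RORB difference was -1.02.

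**Figure D5:**
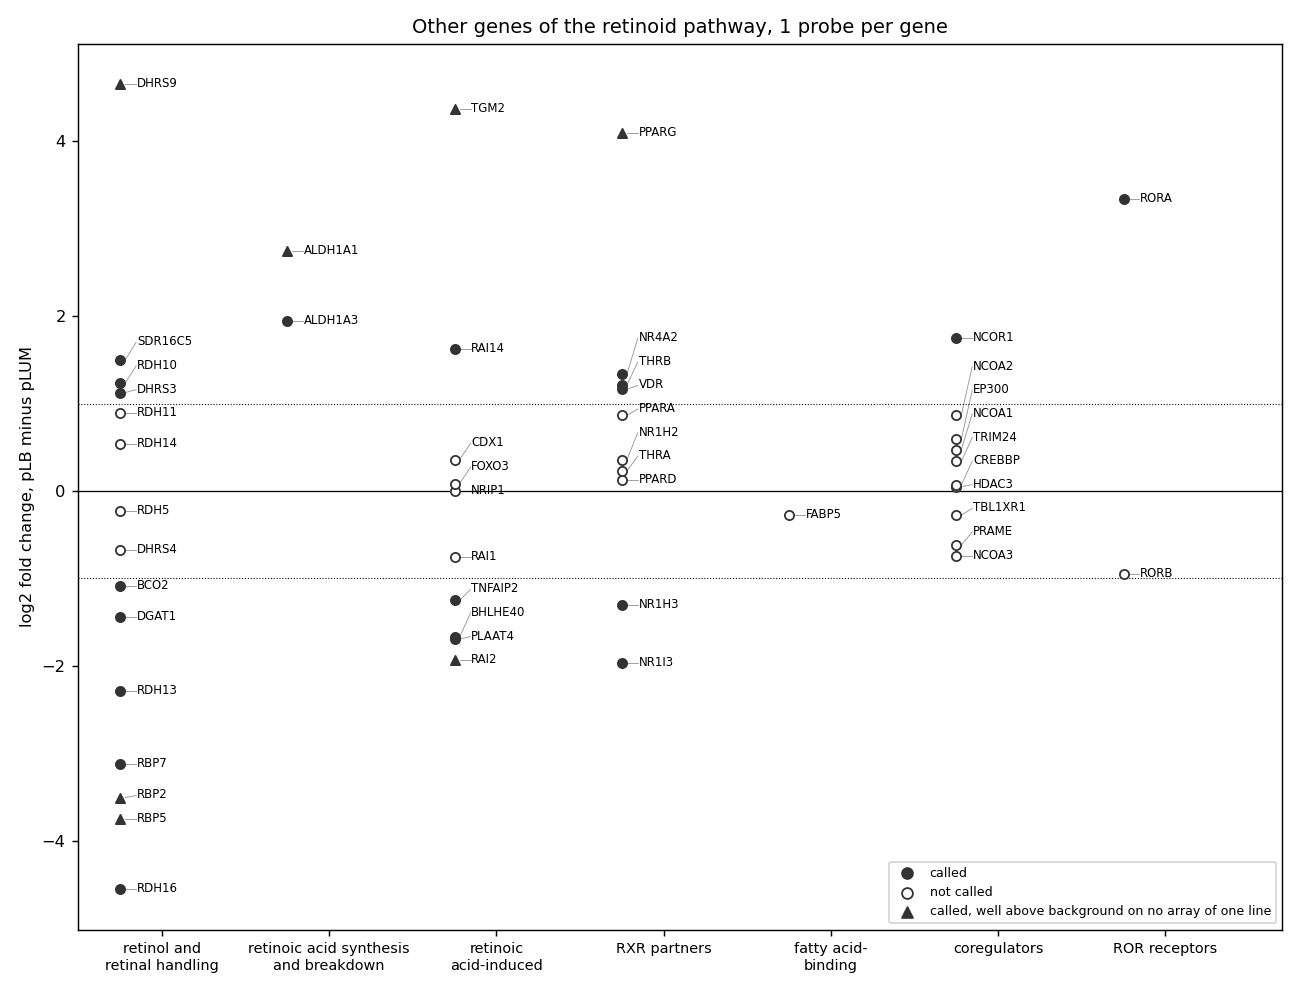
Log2 difference (y axis, pLB minus pLUM) of the 50 tested genes of 7 retinoid pathway lists (x axis), 1 probe per gene, with dotted lines at 2-fold. Filled symbols were called (14 higher, 13 lower) and open ones were not. Triangles mark genes well above background on no array of one line, whose plotted difference is a fitted value and not a measured size.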

How the data were processed

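RNA from sorted pLUM cells (3 arrays) and pLB cells (3 arrays) was hybridized to Agilent 4x44K arrays with a single dye. The authors deposited the scanner output of Feature Extraction 10.10.1.1, which gives each spot a linear intensity, corrected for background within the array and not normalized between arrays, together with other columns of flags for outliers, saturation and signals well above background. Depth does not apply to arrays; their number limits the precision.

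From the deposited intensities, log2 values over each array's 75th percentile were computed. Spots flagged as outliers (296 to 387 per array) were dropped, and repeated spots averaged by probe. The 23105 probes that passed background on 3 or more of the 6 arrays were fitted in R 4.3.3 by lmFit and eBayes of limma 3.58.1, with no covariate, and called at 2-fold with a Benjamini-Hochberg adjusted p under 0.05 over all of them. Where no array of a line was well above background, the fold is a lower bound, set against the higher, per array, of the lowest level well above background and the probe's own level. This bound holds for the reported background correction only and carries no sampling error. With normexp the difference was smaller than the bound for some genes. Gene symbols are those of the array, older ones matched by hand-listed synonyms.

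Named are the 9 genes with all their probes, the called genes of each pathway list, 5 line markers and the 3 genes nearest in pattern to CRABP1; those named otherwise are so marked or given only as values that were not called. The genes and lists were chosen with earlier results of these data known. Some pathway genes are not reported here and are in none of the list counts. Alternatives were normexp background correction (offset 50), median, quantile and spike-in scaling, 2 other filters, a floor, outlier spots kept, the methods' t-test, no fold threshold, the mean of a gene's probes, slide and replicate blocks, and removal of each array.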

Additional observations from a re-analysis of the deposited data

How the results depend on the processing

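Of 162 recomputed differences of the 9 retinoid receptor and binding protein probes, 160 kept their side of the threshold and 2, both of the second CRABP2 probe, came to pass it. Several of the settings leave the difference unchanged by construction, so the count overstates how many could have moved. The probes called higher numbered 3 to 4 and those called lower 0 to 0 when each array was left out, with 4 only without pLB replicate 1; they numbered 4 also with spike-in scaling and without the filter on dim probes, where 1 probe, of RARB, was called lower. Of the pathway genes, 14 to 16 were called higher and 13 to 14 lower with each array left out, 3 higher and 11 lower with normexp (each of these also called as reported), and 9 higher and 9 lower where a probe had to pass background on all 6 arrays. Over all probes, normexp called 3004 higher and 4033 lower, against 5054 and 5476, and the cause was not tested. Only ALDH1A1 among called genes reversed, at -0.067 with normexp. With the slide as a block, where only pLB replicate 1 can be set against pLUM, 15 pathway genes were higher and 16 lower, and SDR16C5 lost its call (1.21, limma adjusted p 0.081). Spike-in scaling moved the median of all probes by 0.25 log2, and 58.4% of calls were then higher in pLB, against 48%; relative to that shift the second CRABP2 probe, at 1.08, would not reach 2-fold. Of 50 pathway genes, 22 changed sides under at least 1 setting (17 values weaker, 20 stronger of 890).

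The labels do not say whether same-numbered arrays of the lines belong together. Deviations of same-numbered arrays correlated at -0.27, -0.1 and -0.22, and those of other pairs at -0.03 to 0.25. With 3 arrays per line these values cannot settle it. With the replicate block, 3 probes were higher and 0 lower, and 14 pathway genes were higher and 13 lower, as without it. With 3 arrays per line, dim probes such as those of RARB, RXRG and STRA6 give no measured level, and line, hormone and derivation cannot be told apart.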
